A study of Mus musculus with 6 samples.

Results

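The 10 tubulin isotype genes described here are the 4 alpha-tubulin genes Tuba1a, Tuba1b, Tuba1c and Tuba4a and the 6 beta-tubulin genes Tubb2a, Tubb2b, Tubb3, Tubb4b, Tubb5 and Tubb6. They were taken by symbol from a table of 48709 genes measured by polyA RNA sequencing of embryonic mouse hearts, and all 10 were among the 26747 genes with enough signal to be tested. The series has 6 libraries on the C57BL6/J background. The 3 control libraries carried the genotype RBPMS flox/flox RBPMS2 flox/flox, that is, alleles of both genes that Cre recombinase can delete. The 3 double knockout libraries carried the same alleles and in addition the label XML Cre pos, a Cre driver whose name is not explained in the sources used here. Per the series' design text, the controls were littermates and the deletion of both genes was restricted to cardiomyocytes, the contracting cells of the heart muscle. The tissue is labelled as heart, so other cell types were sequenced together with the cardiomyocytes. The embryonic stage is not given in the sources used here. No group carried Cre without the floxed alleles, so an effect of Cre and an effect of losing the genes cannot be told apart. Whether the libraries come from different animals is not stated in the labels, so the p-values measure only the spread between these libraries.

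Tubulins are the building blocks of microtubules, hollow polymers made of pairs of an alpha and a beta subunit. Microtubules carry transport by kinesin and dynein motors, form the spindle of dividing cells and, in cardiomyocytes, add resistance to contraction when they are stabilised. The isotypes are encoded by separate genes with closely similar products, which differ most in the acidic tail at the end of the protein. Cells adjust tubulin mRNA to the amount of free tubulin: when unpolymerised subunits accumulate, the protein TTC5 recognises the first residues of a tubulin chain emerging from the ribosome, and the mRNA being translated is degraded. The tail of most alpha-tubulins ends in a tyrosine that the vasohibin enzymes remove and tubulin tyrosine ligase (Ttl) puts back.

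The coding sequences show how close the isotypes are and which of their reads can be told apart. The sequences below are from the GENCODE M21 transcripts of the mm10 build and begin at the start codon, with the first 4 codons, which encode the residues read during autoregulation, in capitals.
Tuba1a: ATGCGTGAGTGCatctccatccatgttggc
Tuba1b: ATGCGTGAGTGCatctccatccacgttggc
Tuba1c: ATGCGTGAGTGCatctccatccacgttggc
Tuba4a: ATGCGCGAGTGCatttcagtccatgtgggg
Tubb2a: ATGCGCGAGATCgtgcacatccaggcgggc
Tubb5: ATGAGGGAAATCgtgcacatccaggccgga
The 3 Tuba1 genes share the same letters in these codons, and Tuba4a differs from them there only by a synonymous letter. The beta genes encode another residue than the alpha genes at the last of these codons. The ends of the coding sequences of Tuba1c and Tuba4a are given next, with the last codon before the stop in capitals.
Tuba1c: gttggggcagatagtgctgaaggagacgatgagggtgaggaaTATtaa
Tuba4a: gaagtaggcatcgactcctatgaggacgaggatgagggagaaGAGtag
Tuba1c ends in a codon for tyrosine and Tuba4a ends in a codon for glutamate, so the Tuba4a product is made without the terminal tyrosine. Over the aligned coding sequence Tuba1a was 98.3% identical to Tuba1b and 97.6% identical to Tuba1c, and Tuba1b was 98.4% identical to Tuba1c. Tuba4a was 85.3% to 85.6% identical to the other alpha members. Among the beta genes Tubb2a and Tubb2b were 96.5% identical, and every other pair of beta members lay between 80.7% and 86.5%.

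Reads of 75 bases were sequenced, and 39.4% of the windows of this length in the coding sequence are the same in Tuba1a, Tuba1b and Tuba1c. Tubb2a and Tubb2b share 49.0% of their coding windows, and differ most at coding bases 110 to 184, by 12 letters, given in capitals.
Tubb2a: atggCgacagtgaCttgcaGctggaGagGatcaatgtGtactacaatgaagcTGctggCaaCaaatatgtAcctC
Tubb2b: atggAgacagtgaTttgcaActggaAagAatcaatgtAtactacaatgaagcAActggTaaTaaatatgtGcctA
Over whole transcripts, untranslated ends included, the share of windows also present in a gene at another locus was 68.0% for Tuba1b, 56.3% for Tuba1a, 48.9% for Tuba1c, 43.2% for Tubb2a, 30.2% for Tubb2b and 27.7% for Tubb4b. It was 0 for Tuba4a, Tubb3, Tubb5 and Tubb6. How reads matching several genes were counted is not given in the sources used here, so the values of the 3 Tuba1 genes, of the Tubb2 pair and of Tubb4b are uncertain in how reads were divided among near-identical copies.

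The deposited values are normalised read counts, that is, whole numbers scaled by 1 factor per library, with totals between 19770390 and 20215282 per library and 26509 to 27680 genes above 0. Rbpms, the first targeted gene, was 3551, 3853 and 3956 in the controls and 721, 699 and 670 in the knockouts, which is -2.44 on the log2 scale (limma, adjusted p of 6.83e-13). Rbpms2 was 2444, 2571 and 2716 in the controls and 1676, 1257 and 1429 in the knockouts, which is -0.83 on the log2 scale (limma, adjusted p of 2.92e-05, and 0.142 without both libraries numbered 3). RNA of both targeted genes was thus lower in every knockout library and not absent. Cardiomyocyte markers summed to 544195 to 604933 in the controls and to 438239 to 539670 in the knockouts, with none at 0, and 1 of 8, Myh6, passed the test as lower. The libraries numbered 3 in both genotypes held Xist at 6 and 20 and the Y-linked gene Eif2s3y at 1207 and 1569, against Xist at 19501 to 25229 and Eif2s3y at 0 to 4 in the other libraries. Each genotype therefore held 1 library of male pattern. Sex is not among the labels used here.

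The comparison of double knockout with control hearts asks whether tubulin mRNA differed when cardiomyocytes lost both genes. Means of 8 of the 10 isotypes were lower in the knockouts, with differences from -7.58% for Tubb2a to -22.6% for Tubb3, and the means of Tuba4a and Tubb6 were higher by 11.7% and 12.1%. Over all tested genes the log2 fold change was below 0 for 48.1% and above 0 for 51.9%. None of the 10 passed the test across all genes, limma on log2(value + 1) with a Benjamini-Hochberg adjusted p under 0.05, and their adjusted p ranged from 0.166 to 0.578. The background was 4.86% of tested genes called, with 2.31% called higher and 2.55% called lower. At an unadjusted p under 0.05, 5 members were lower (Tuba1b, Tuba1c, Tubb2b, Tubb4b and Tubb5) and 0 were higher, against 18.7% of all tested genes in either direction at that level, or 2407 of 26747 lower. limma with voom weights likewise called 0 of the 10. The median log2 fold change over the members was -0.19, against 0.02 over all tested genes and -0.02 over the 4663 tested genes whose mean reached 1000. The values of the genotypes did not overlap for 4 members that were lower (Tuba1b, Tuba1c, Tubb4b and Tubb5) and for 1 that was higher (Tubb6), against a background of 10.6% of tested genes lower without overlap and 11.1% higher. Reads of shared windows may enter the values of several Tuba1 genes, or of both Tubb2 genes. The counts of members above are thus not counts of separate measurements. In bulk tissue, fewer cells of a type and less RNA per cell cannot be told apart.

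**Figure D1:**
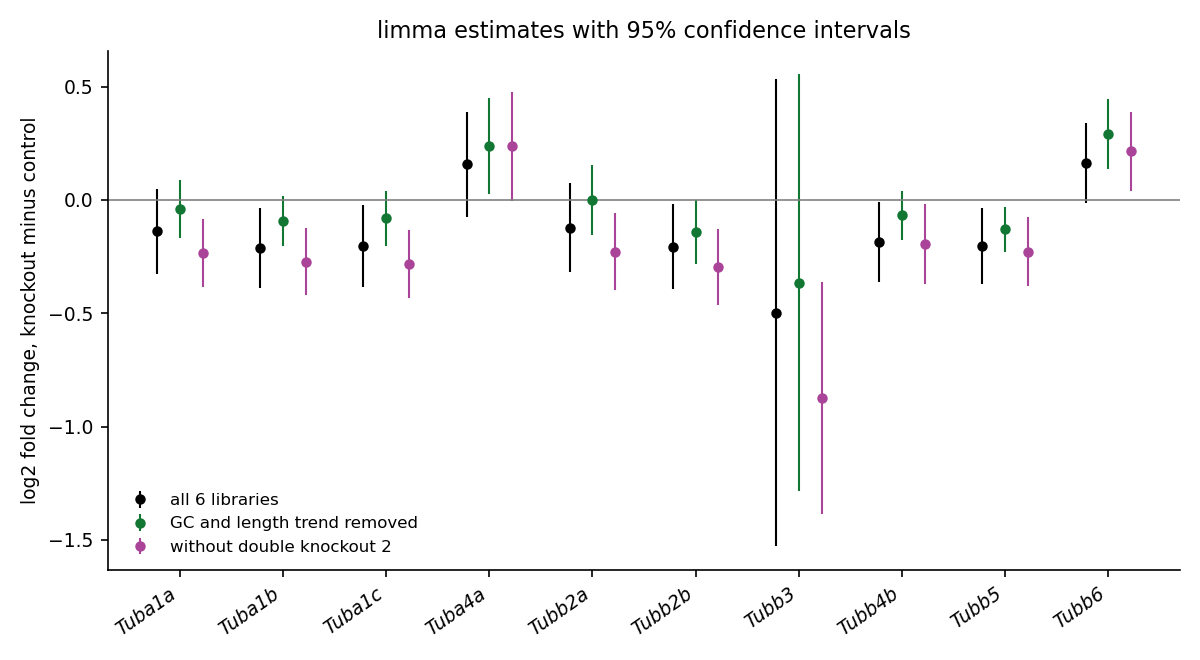
limma log2 fold change (knockout minus control, on log2(value + 1)) with its 95% confidence interval for each tubulin isotype gene. With all libraries, 3 control and 3 double knockout, the estimates of 8 genes lie below 0, between -0.12 and -0.50. Those of Tuba4a and Tubb6 then lie at 0.16. With the GC and length trend removed, the same 8 genes lie between -0.0016 and -0.37, Tuba4a at 0.24 and Tubb6 at 0.29. Without double knockout 2, the 8 genes lie between -0.20 and -0.87, Tuba4a at 0.24 and Tubb6 at 0.21.

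Among the alpha genes, Tuba1b (chr15:98931425-98934565, minus strand), a widely expressed isotype and the member with the highest value, read 41374, 42026 and 42456 in the controls and 35645, 39436 and 33835 in the knockouts. Each knockout lay below each control. Its mean was 41952 ± 545 (SD, n = 3) in the controls and 36305 ± 2858 (SD, n = 3) in the knockouts, a log2 fold change of -0.21 ± 0.08 (SE; limma adjusted p = 0.169). Tuba1c (chr15:99029891-99038110, plus strand), a widely expressed neighbour of Tuba1b, read 31610, 32270 and 32527 in the controls and 27269, 31115 and 25588 in the knockouts. Again the genotypes did not overlap, although double knockout 2 lay close to the lowest control. The log2 fold change of Tuba1c was -0.20 ± 0.09 (SE; limma adjusted p = 0.206). Tuba1a (chr15:98949837-98953703, minus strand), an isotype abundant in developing neurons and best known for brain malformations in people with variants of the gene, read 31830, 32158 and 32329 in the controls and 27985, 33254 and 26640 in the knockouts. Here double knockout 2 was the highest of all 6 libraries and the other knockouts were the lowest. The log2 fold change of Tuba1a was -0.14 ± 0.09 (SE; limma adjusted p = 0.431), and it was -0.23 without double knockout 2 and -0.07 without double knockout 3.

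Tuba4a (chr1:75214228-75219865, minus strand), the isotype whose coding sequence lacks the terminal tyrosine, was far lower than the Tuba1 genes at 305, 304 and 343 in the controls and 366, 316 and 381 in the knockouts. Double knockout 2 lay among the controls and the other knockouts lay above them. Its log2 fold change was 0.16 ± 0.11 (SE; limma adjusted p = 0.473), and it was 0.24 without double knockout 2 and 0.10 without double knockout 3. Of the Tuba4a windows, 33.4% lie in Stk16, a kinase gene on the opposite strand whose end overlaps that of Tuba4a. The strand setting of the counting is not given in the sources used here, so the reads of that stretch cannot be assigned with certainty. Stk16 itself had a log2 fold change of -0.07 (adjusted p = 0.704 in limma).

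Among the beta genes, Tubb5 (chr17:35833921-35838306, minus strand), the main isotype of dividing cells, read 33969, 34678 and 34696 in the controls and 30403, 30968 and 28430 in the knockouts. All knockouts were below all controls, and unlike the Tuba1 genes Tubb5 put double knockout 2 close to double knockout 1. The mean was 34448 ± 415 (SD, n = 3) in the controls and 29934 ± 1333 (SD, n = 3) in the knockouts, a log2 fold change of -0.20 ± 0.08 (SE; limma adjusted p = 0.166), the lowest adjusted p of the 10 members. Tubb4b (chr2:25222160-25224702, minus strand), a widely expressed isotype that is also a component of cilia, read 5397, 5165 and 5775 in the controls and 4981, 4842 and 4533 in the knockouts. The genotypes did not overlap, and the log2 fold change was -0.19 ± 0.08 (SE; limma adjusted p = 0.234).

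Tubb2b (chr13:34126748-34130466, minus strand), an isotype of developing neurons and other embryonic cells, read 3992, 4142 and 4072 in the controls and 3239, 4000 and 3383 in the knockouts. Double knockout 2 lay between the controls, and the log2 fold change was -0.21 ± 0.09 (SE; limma adjusted p = 0.217). Its near-copy Tubb2a (chr13:34074274-34078007, minus strand) read 2660, 2636 and 2670 in the controls and 2232, 2833 and 2297 in the knockouts. As for Tuba1a, double knockout 2 was the highest library and the other knockouts were the lowest. The log2 fold change of Tubb2a was -0.12 ± 0.09 (SE; limma adjusted p = 0.512). It was -0.06, -0.23 and -0.08 when double knockout 1, 2 or 3 was left out.

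Tubb6 (chromosome 18, plus strand), an isotype that is induced in regenerating muscle, was the only beta member with a higher mean in the knockouts. It read 1765, 1828 and 1871 in the controls and 2095, 1901 and 2130 in the knockouts, without overlap. Its log2 fold change was 0.16 ± 0.08 (SE; limma adjusted p = 0.304). In an alternative setting, the trend of each library's deviations from the gene means on GC content and length was removed. Tubb6 then passed the test at a log2 fold change of 0.29 (adjusted p = 0.0252 in limma), while the median of all 10 members moved from -0.19 to -0.07. Tubb3 (chr8:123411424-123422015, plus strand), the isotype used as a marker of neurons, was scarce and varied most, at 120, 156 and 122 in the controls and 100, 157 and 51 in the knockouts. The genotypes overlapped, and the log2 fold change of -0.50 had a 95% confidence interval from -1.53 to 0.53 (limma adjusted p = 0.578). The fold change of Tubb3 was -0.87 without double knockout 2 and -0.07 without double knockout 3, so its size rests on single libraries.

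**Figure D2:**
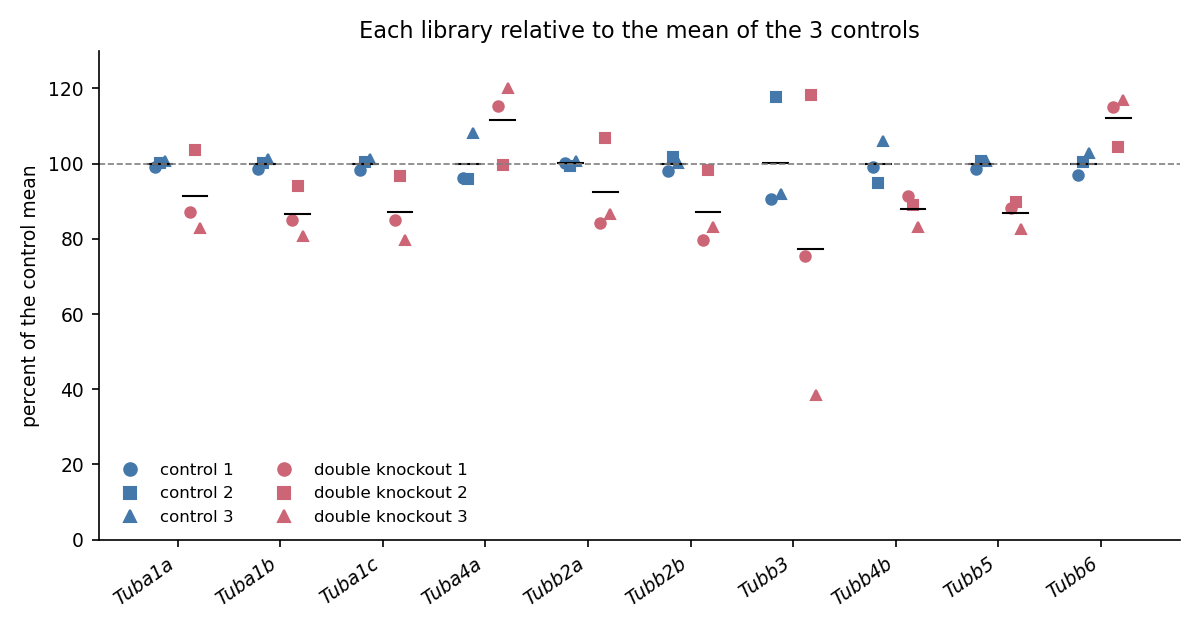
Each library as a percent of the mean of the 3 controls (dashed line at 100), with each dot a library and horizontal lines at the group means. Double knockout 2 lies at 103.6% for Tuba1a, 106.7% for Tubb2a and 118.3% for Tubb3, above the other knockouts, and the 3 knockouts lie between 82.5% and 91.5% for Tubb4b and Tubb5.

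Double knockout 2 stood apart from the other knockouts for 8 of the 10 isotypes. Relative to the control mean, this library was at 103.6% for Tuba1a, 94.0% for Tuba1b, 96.8% for Tuba1c, 106.7% for Tubb2a and 98.3% for Tubb2b, while double knockouts 1 and 3 were between 79.6% and 87.2% for the same genes. It was thus the knockout nearest to the controls, or lay above them, for each of the 5. It was also nearest to the controls for both members with higher means, at 99.6% for Tuba4a against 115.3% and 120.1%, and at 104.4% for Tubb6 against 115.0% and 116.9%. For Tubb3 the 3 knockouts were at 75.4%, 118.3% and 38.4%. For Tubb5 the 3 knockouts were at 88.3%, 89.9% and 82.5%, and for Tubb4b at 91.5%, 88.9% and 83.2%, so the libraries lay closer together. Without double knockout 2, 3 members passed the test: Tuba1b at -0.27 (limma adjusted p = 0.0368), Tuba1c at -0.28 (limma adjusted p = 0.0339) and Tubb2b at -0.30 (limma adjusted p = 0.0421). Without double knockout 3 the median log2 fold change of the members was -0.11, and without both libraries numbered 3 it was -0.12, with none past the threshold in either case.

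Marker levels of other cell types also differed between libraries. The 14 neuron markers summed to 503, 508 and 501 in the controls and to 417, 527 and 451 in the knockouts, and 10 of the 14 had a log2 fold change below 0. The order of the knockouts came from Gap43, a growth cone protein and the most abundant of them, at 283, 273 and 268 in the controls and 235, 350 and 259 in the knockouts. The other 13 neuron markers summed to 220, 235 and 233 in the controls and to 182, 177 and 192 in the knockouts, lowest in double knockout 2. The 7 fibroblast markers summed to 21025, 24479 and 17077 in the controls and to 21448, 33246 and 16550 in the knockouts, highest in double knockout 2. The 5 epicardial markers summed to 3929, 4687 and 4632 in the controls and to 3317, 4498 and 3779 in the knockouts, which is the knockout order of Tubb2a and Tubb2b, with 4 of 5 below 0. No neuron, fibroblast or epicardial marker passed the test and none was at 0. The 8 markers of cycling cells summed to 36756 to 37678 in the controls and to 36317 to 38695 in the knockouts, with 0 of 8 past the threshold. The 6 markers of smooth muscle and mural cells summed to 38041 to 42290 in the controls and to 10472 to 16304 in the knockouts, and Acta2 and Cnn1 were called lower. Without Acta2, the most abundant, the other 5 summed to 12569, 13411 and 13743 in the controls and to 6895, 9729 and 5799 in the knockouts. Tagln of this list is also a protein of embryonic heart muscle, so the sum does not measure smooth muscle and mural cells alone. The 6 endothelial markers summed to 17185 to 20790 in the controls and to 18663 to 22412 in the knockouts, with Emcn called higher, and the 5 macrophage markers to 1099 to 1120 and 1115 to 1307, with Ptprc called higher. The 5 erythroid markers summed to 36881, 70581 and 100494 in the controls and to 77760, 99430 and 110834 in the knockouts. Of these, 5 had a log2 fold change above 0 and 0 were called. The part of these cell types in the tubulin values was not tested.

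Levels can be compared between genes only per length, and the values were therefore divided by the length of all annotated exons in kilobases. On this per-kb scale the control means were 22374 for Tuba1b, 17807 for Tuba1a, 14052 for Tuba1c and 10354 for Tubb5, the 4 most abundant isotypes. A middle group followed with 2608 for Tubb4b, 1774 for Tubb2b, 1649 for Tubb2a and 747 for Tubb6. Tuba4a at 85.7 and Tubb3 at 71.0 were the least abundant. Over the control libraries only Tuba4a and Tubb3 overlapped among neighbours in this order. In the knockouts the overlapping neighbours were Tuba1b with Tuba1a and Tubb2b with Tubb2a. On this scale the 4 most abundant genes are thus 3 near-identical alpha genes and 1 beta gene. Their levels and the place of Tubb5 among them depend on how shared reads were counted and on the length used. In an estimate given below that assigned shared reads once, Tubb5 lay above Tuba1a and Tuba1c in the controls. Tubb5 was then 64.7% of a beta total of 20108, and Tuba1a 30.6% and Tuba1c 12.1% of an alpha total of 32435.

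**Figure D3:**
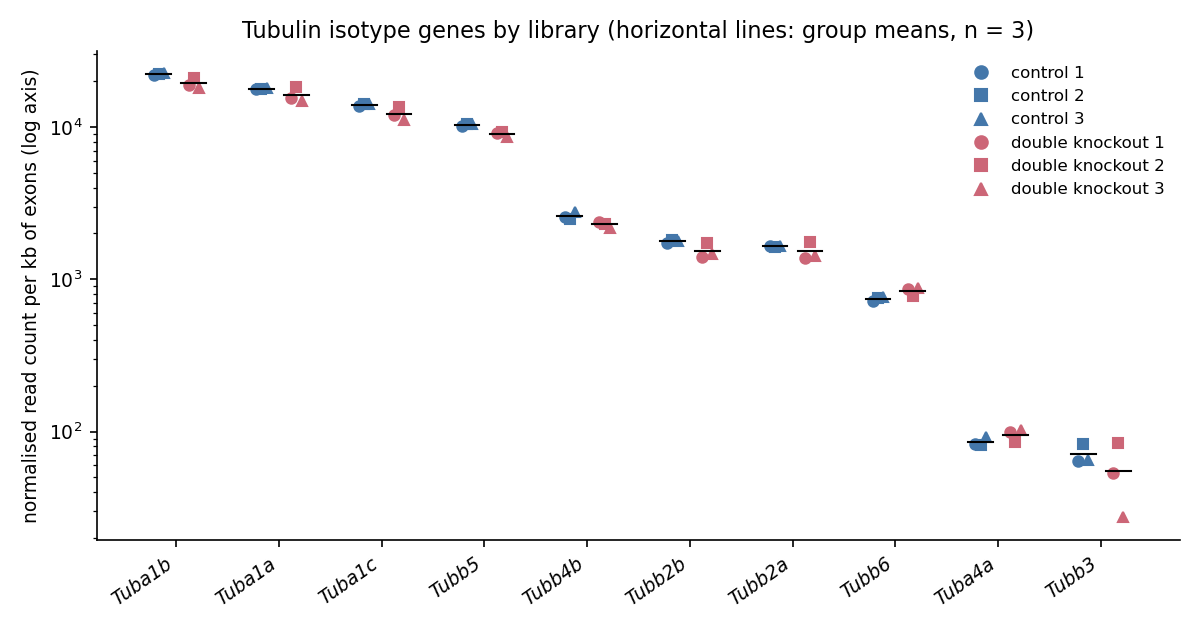
Normalised read count per kb of exons (log axis) for each tubulin isotype gene, with each dot a library and horizontal lines at the group means (n = 3). The control means run from 22374 for Tuba1b to 71.0 for Tubb3.

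The alpha total, the sum of the 4 alpha members per kb, was 53624, 54442 and 54889 in the controls and 46554, 53167 and 44112 in the knockouts. The mean was 54318 ± 642 (SD, n = 3) in the controls and 47944 ± 4685 (SD, n = 3) in the knockouts, a difference of -11.7%. The beta total, the sum of the 6 beta members, was 16976, 17173 and 17461 in the controls and 15235, 15994 and 14519 in the knockouts. The mean was 17203 ± 244 (SD, n = 3) in the controls and 15249.6 ± 738 (SD, n = 3) in the knockouts, a difference of -11.4%. Without double knockout 3 the differences were -8.21% for alpha and -9.23% for beta, and without double knockout 2 they were -16.5% and -13.5%. In both totals each knockout lay below each control, and the exact two-sided permutation test gave p = 0.1 for each, the smallest that 3 against 3 libraries allow (Benjamini-Hochberg 0.217 over the 13 totals, ratio and shares). The ratio of alpha to beta was 3.16 ± 0.013 (SD, n = 3) in the controls and 3.14 ± 0.16 (SD, n = 3) in the knockouts (exact permutation p = 1.0). The individual ratios were 3.06, 3.32 and 3.04 in the knockouts, with double knockout 2 above and the others below every control. The alpha and beta totals were thus lower by a similar percentage, and the ratio in single knockouts varied far more than in the controls.

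The isotype shares of each total moved by small amounts. Tuba1a made up 32.8% ± 0.13 of the alpha total in the controls and 33.8% ± 0.74 in the knockouts (SD, n = 3 each), Tuba1b 41.2% and 40.4%, and Tuba1c 25.9% and 25.5%. For each of these 3 shares the genotypes did not overlap, at an exact permutation p of 0.1. Without double knockout 2 the difference of the Tuba1a share was 0.63 percentage points and that of the Tuba1b share -0.32, against 1.059 and -0.76 with all libraries. Tuba4a was 0.158% of the alpha total in the controls and 0.202% in the knockouts (exact permutation p = 0.2). Shares of 1 total are not independent, since a higher share of one isotype lowers the others.

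Tubb5 supplied most of the beta total, 60.2% in the controls and 59.0% in the knockouts (exact permutation p = 0.2). Tubb4b held 15.2% and 15.04%, Tubb2b 10.3% and 10.1%, Tubb2a 9.59% and 9.98%, and Tubb3 0.413% and 0.355%, with overlapping genotypes for all 4, and the sign of each of these 4 differences changed when 1 library was left out. Tubb6 was the exception among the beta shares. Its share was 4.27%, 4.37% and 4.4% in the controls and 5.64%, 4.88% and 6.02% in the knockouts, without overlap (exact permutation p = 0.1, Benjamini-Hochberg 0.217). Since Tubb6 shares no 75-base window with another locus, this share does not depend on how its own reads were divided, although the other terms of the total do.

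**Figure D4:**
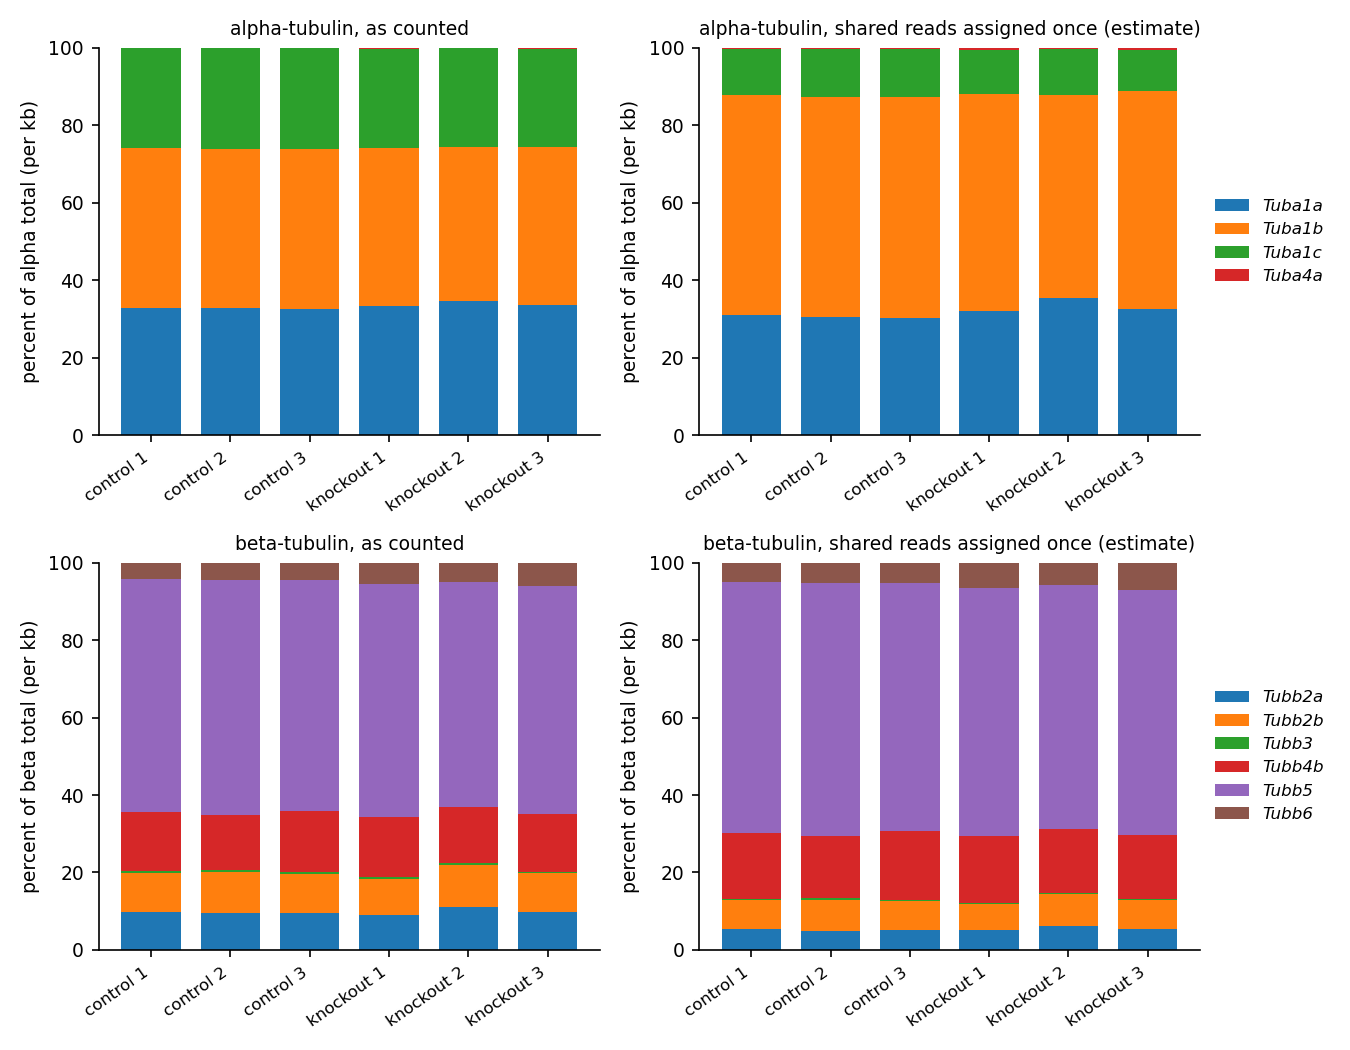
Percent of the alpha total and of the beta total held by each isotype in each of the 6 libraries. Values are per kb of exons, or from the estimate that assigned shared reads once and used the length of a principal transcript. Tuba1b, Tuba1a and Tuba1c take nearly all of the alpha total on the per-kb scale (41.2%, 32.8% and 25.9% in the controls), and Tubb5 takes 60.2% of the beta total.

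Processed pseudogenes, intronless copies of tubulin mRNAs elsewhere in the genome, were used to compare counting shared reads at each gene with dividing them equally. The comparison took the copies as having no reads of their own. It also left out some genes that hold the same windows, such as Gm3226, which matters for equal division. It therefore cannot settle how shared reads were counted. Gm14150, which holds windows of the Tuba1 genes, carried a value of 22975 ± 244 (SD, n = 3) in the controls, and Gm17383 carried 18715 ± 268 (SD, n = 3). Both exceed the Tubb4b value. If each read matching several genes were counted at each of them, the windows shared with the Tuba1 genes would give Gm14150 18120 and Gm17383 21430, which is 0.79 and 1.15 times the observed values. If such reads were divided equally instead, these ratios would be 0.47 and 0.53. For Tubb4b-ps1, a copy of Tubb4b with an observed control mean of 1806, the ratios were 1.02 counted at each gene and 0.60 divided equally. The other Tubb4b copies compared were expected below their observed values under either rule. Their ratios were 0.73 and 0.32 for Tubb4b-ps2 and 0.42 and 0.25 for Gm16165. Gm5620 and Gm15599 were also nearer to counting at each gene, with ratios of 0.84 and 0.90 against 0.39 and 0.35. Gm6682 was nearer to equal division, at 0.88 against 2.09, and Gm3756 was nearer to it as well, at 1.63 against 3.27. Neither model came close for all copies. The counting rule itself was not tested further.

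**Figure D5:**
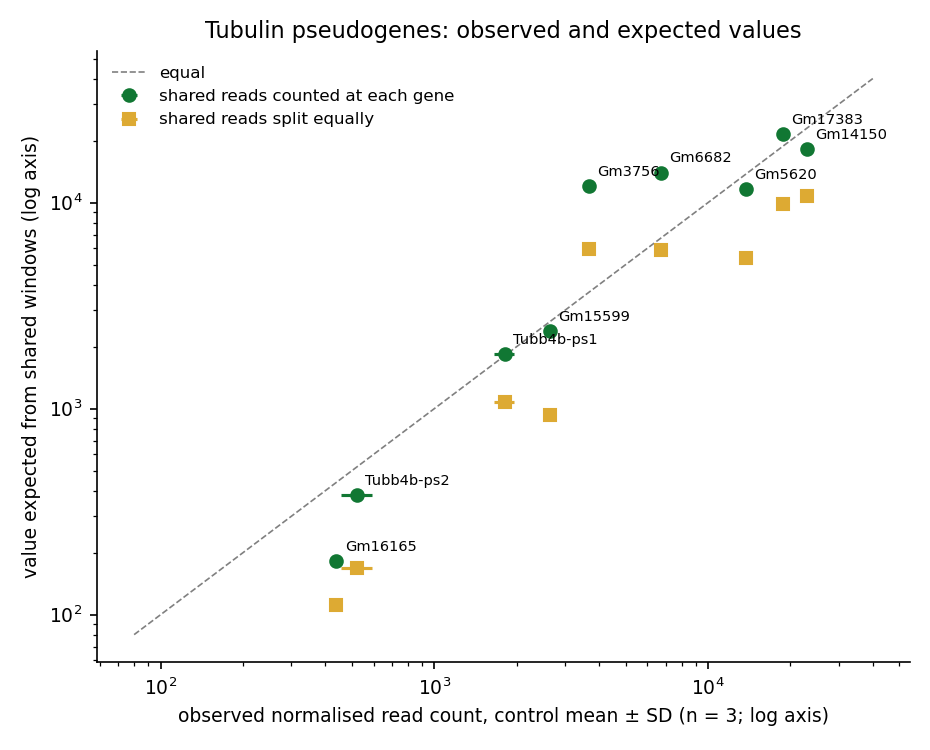
Observed control mean ± SD (n = 3, normalised read count, log axis) of tubulin pseudogenes against the value expected from the windows they share with the isotype genes (log axis), for reads counted at each gene and for reads divided equally; the dashed line marks equality. Gm14150, Gm17383, Gm5620 and Tubb4b-ps1 lie nearer the line when reads are counted at each gene, at 0.79, 1.15, 0.84 and 1.02 times the observed value, and Gm6682 and Gm3756 lie nearer it when reads are divided equally, at 0.88 and 1.63 times.

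An estimate that assigned shared reads once, chosen after seeing the data, used the windows of each transcript to divide them between the near-identical genes. It took every read matching several genes as counted in full at each of them, a rule that did not come close for all pseudogenes. The estimate also used the length of a principal transcript in place of all annotated exons, so its changes from the per-kb scale mix both steps. It moved the shares of Tuba1b and Tuba1c in the controls by more than the genotypes differed. Tuba1b then held 56.9% of the alpha total in the controls, Tuba1a 30.6% and Tuba1c 12.1%, and the ratio of alpha to beta was 1.61 in both genotypes. In the knockouts the shares were 54.9% for Tuba1b, 33.3% for Tuba1a and 11.3% for Tuba1c, and the last overlapped between genotypes (exact permutation p = 0.2). Tubb5 held 64.7% of the beta total in the controls and 63.4% in the knockouts, and Tubb6 5.15% and 6.53%. The Tubb5 share, which overlapped per kb, did not overlap between genotypes here (exact permutation p = 0.1). Tubb5 and Tubb6 share no window with another locus. Per length of the longest transcript, without reassigning reads, their control shares were already 61.8% and 4.93%, and the Tubb5 share overlapped. In the estimate the difference between genotypes was -11.6% for the alpha total and -11.3% for the beta total. Before division by length, the estimated reads of Tuba1a had means of 17888 in the controls and 17257 in the knockouts. Those of Tuba1b were 32196 and 27382, and those of Tuba1c 7790 and 6469. For Tubb2a they were 1658 and 1605, and for Tubb2b 3402 and 2895.

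The other tubulin genes and the wider pathway were given by lists of named genes. Of 10 other tubulin genes tested, 0 rose and 1 fell, with a median log2 fold change of -0.24. The gene that fell was Tubb4a, a beta isotype of myelinating glia and neurons, at 148, 125 and 157 in the controls and 67, 99 and 56 in the knockouts, a log2 fold change of -0.98 (adjusted p = 0.00414 in limma). All 3 knockouts were below all controls. This call was lost without control 3 (adjusted p = 0.0571), without double knockout 3 (adjusted p = 0.0579) and without both libraries numbered 3 (adjusted p = 0.372) in limma. Without robust moderation, a setting that limits the pull of unusually variable genes, limma called neither Tubb4a (adjusted p = 0.0886) nor any of the 5 called genes of the other pathway lists below, at adjusted p of 0.0663 for Map7, 0.0756 for Dync1li2, 0.126 for Ttll7, 0.138 for Dynlt3 and 0.142 for Nedd1. Tubb1, the isotype of platelets and their precursors, read 72, 69 and 71 in the controls and 152, 76 and 195 in the knockouts (limma adjusted p = 0.133), and the 5 megakaryocyte and platelet markers, which summed to 532, 484 and 636 in the controls and to 911, 523 and 1206 in the knockouts, put the knockouts in the same order. Their part in the Tubb1 values was not tested. The 5 Schwann and neural crest markers summed to 620 to 705 in the controls and to 604 to 863 in the knockouts. Of these, 5 had a log2 fold change above 0, unlike Tubb4a, and 0 were called. Their part in the Tubb4a values was not tested.

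The gamma-tubulin genes Tubg1 and Tubg2 seed microtubules. Tubg1 read 1301, 1097 and 1346 in the controls and 1157, 1001 and 975 in the knockouts, with overlap (limma adjusted p = 0.157). In the list of 15 genes of the gamma-tubulin ring complex and nucleation, 0 rose and 1 fell, with a median log2 fold change of -0.04. The gene that fell was Nedd1, which recruits the ring complex to centrosomes, with means of 1213 in the controls and 934 in the knockouts (log2 fold change -0.39, limma adjusted p = 0.0332). The Nedd1 call was lost when any 1 library other than double knockout 3 was left out, with adjusted p in limma from 0.112 without double knockout 1 to 0.142 without control 1.

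Of 22 genes for tubulin folding and autoregulation, 0 rose and 0 fell, with a median log2 fold change of -0.02. Tcp1, a subunit of the chaperonin that folds tubulin and the most abundant of the list, had means of 7801 and 7477 (limma adjusted p = 0.714). Ttc5, the reader of nascent tubulin in autoregulation, read 607, 631 and 616 in the controls and 643, 697 and 632 in the knockouts, slightly higher without overlap (log2 fold change 0.09, limma adjusted p = 0.637). Of 21 tubulin-modifying enzymes 1 rose and 0 fell, with a median of -0.05. The one that rose was Ttll7, which adds glutamates to the tails of beta-tubulin, with means of 163 and 229 (log2 fold change 0.48, limma adjusted p = 0.0452). That call was lost when any 1 library other than double knockout 1 was left out, with adjusted p in limma from 0.0988 without control 1 to 0.207 without control 3, and with the trend on GC content and length removed (adjusted p = 0.142). Ttl, which restores the terminal tyrosine, read 447, 528 and 474 in the controls and 474, 472 and 455 in the knockouts (limma adjusted p = 0.839).

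Among 29 tested microtubule-associated and dynamics proteins 1 rose and 0 fell, with a median log2 fold change of -0.11. Map7, which binds microtubules and activates kinesin-1, had means of 198 in the controls and 293 in the knockouts (log2 fold change 0.56, limma adjusted p = 0.0105). Adjusted p in limma was 0.0651 without control 1, 0.0958 without control 3 and 0.0838 without double knockout 3. Map4, the main microtubule-associated protein of muscle, and Stmn1, which sequesters free tubulin, had log2 fold changes of 0.06 and -0.13 (limma adjusted p = 0.739 and 0.387). Stmn1 read 5210, 5380 and 5320 in the controls and 4866, 4877 and 4770 in the knockouts, without overlap.

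Of 20 microtubule motor genes 2 rose and 0 fell, with a median log2 fold change of 0.06, the only median above 0 among the pathway lists. Dynlt3, a light chain of cytoplasmic dynein, had means of 767 and 1044 (log2 fold change 0.43, limma adjusted p = 0.0245), and Dync1li2, a light intermediate chain of the same motor, had means of 2397 and 2973 (log2 fold change 0.31, limma adjusted p = 0.0364). For Dynlt3 the adjusted p in limma was 0.115, 0.0792 and 0.119 without controls 1, 2 and 3 and 0.13 without double knockout 3. For Dync1li2 it was 0.168 and 0.221 without controls 1 and 3 and 0.132 without double knockout 3. Over these pathway lists 0 to 2 genes were called per list, against the background of 4.86% of tested genes.

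The genes whose pattern over the 6 libraries was most like each tubulin total were sought among the 11903 protein-coding genes whose mean value reached 50. For the alpha total these were Gadd45g, a stress-response gene (Pearson r = 0.998), Tagln, an actin-binding protein of smooth muscle and embryonic heart muscle (r = 0.997), and Apoa1bp (r = 0.993). For the beta total they were Mcm5, a subunit of the replicative helicase (r = 0.997), Ppme1 (r = 0.997) and Pes1, a ribosome assembly factor (r = 0.995). The points share libraries and the genotype difference, and the best of so many genes over 6 libraries is high by selection, so these values describe the pattern only. None of these 6 genes passed the test.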

How the data were processed

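The series holds 6 libraries of polyA RNA, 3 per genotype. Among the tools listed by the submitters' processing notes are STAR 2.4.2a and featureCounts 1.5.0, with DESeq, DESeq2, Trimmomatic and mm10 as the build. The sources used here give no roles for them, no annotation and no settings for strand or multi-mapping reads. Values deposited by the authors are treated as a score, since they look like read counts that were multiplied by a library factor and then rounded, as judged from the values. The planned fallback for such data, a log-scale test, was used.

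The test was limma 3.58.1 (R 4.3.3) on log2(value + 1), two-sided, with robust moderation and a variance trend, for genes whose mean reached 1 in either genotype, and Benjamini-Hochberg adjusted p under 0.05. This scale understates the change of low genes. Totals and shares were compared by exact permutation of the 6 libraries. Lengths, coordinates, transcript sequences and 75-base windows came from GENCODE M21 (mm10). Alternatives covered scaling, pseudocount, filter, moderation, voom weights, replicate block, a GC and length trend, length definition and left-out libraries. Precision is limited by 3 libraries per genotype.

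The members and lists were chosen with earlier results of these data known. All members, the targeted genes, up to 3 called genes per pathway list (otherwise the most abundant), and the 3 genes most correlated with each total were to be named. Stk16, Ttc5, Ttl, Map4, Stmn1, Tubg1, Tubg2, Tubb1, Xist and Eif2s3y, and the pseudogenes, were added after their values were seen. The limma fit was tested on simulated data. Some sequences are not reported here.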

Additional observations from a re-analysis of the deposited data

How the results depend on the processing

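Over all genes limma called 618 higher and 681 lower. Without a filter on low values 963 were higher, and without robust moderation 144 were higher and 206 lower. Leaving out 1 library gave 186 to 608 genes higher and 234 to 739 lower. The counts were smallest without control 1 (218 higher, 263 lower), control 3 (186 and 234) and double knockout 3 (195 and 301). Without both libraries numbered 3, 14 were higher and 24 lower. The causes were not tested.

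Each of the 10 members kept its direction in all 18 alternatives, with Tubb2a nearest to 0 at -0.0016 once the GC and length trend was removed. The filters, the moderation and the replicate block cannot change the estimate of a member, so the direction was fixed in advance for these settings. Removal of the GC and length trend likewise gave the same estimates with and without a replicate block. The percent differences between genotypes in the alpha total, the beta total and their ratio moved by less than 1 SD of the knockouts in every alternative run for them. Removal of the GC and length trend, which moved the median of the members from -0.19 to -0.07, was not run for the totals, ratio or shares. The ratio itself depended on the length scale and on shared reads (control means of 3.16 per kb, 2.19 from values as deposited and 1.61 with shared reads assigned once). The sign of the small ratio difference changed when double knockout 1 or 3 was left out. The estimate that assigned shared reads once also changed the length used. Its share differences were 2.69 percentage points for Tuba1a, -2.01 for Tuba1b, -0.77 for Tuba1c and 0.096 for Tuba4a. Each was farther from 0 than on the per-kb scale. Tuba4a shares no window with another locus, so none of its own reads were reassigned. The Tuba4a difference was 0.084 points from values as deposited or per coding length.

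The replicate numbers showed no clear pairing of all samples. Over 13805 genes the deviations of same-numbered libraries correlated at 0.05, 0.07 and 0.33, and only the libraries numbered 3 correlated best with their own number in both directions. Deviations within 3 libraries per genotype cannot settle whether the numbers mark pairs. A replicate block gave 674 genes higher and 681 lower, called none of the 10 members, and left the alpha and beta differences at -11.72% and -11.32%. Among the named pathway genes it lost the call of Dync1li2 (limma adjusted p = 0.0978).

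The Tubb3 and Tuba4a values rest on the fewest reads of the 10 members; whether depth or the spread between libraries sets their error was not tested.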
